A study of Mus musculus with 96 samples.

Results

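The level of 10 imprinted genes that lie outside the Dlk1-Dio3 region was followed across single mouse embryonic stem cells. The genes were chosen by name: H19, Igf2, Igf2r, Peg3, Peg10, Sgce, Gnas, Grb10, Snrpn and Impact. Of these 10 genes, 9 were matched by identifier to a row of the 36205 gene rows counted. Snrpn was not matched, and a row at its locus is described apart. All cells were wild-type E14 cells, a mouse embryonic stem cell line that the labels assign to the C57BL/6 background, kept in medium with serum and leukaemia inhibitory factor (serum/LIF). Messenger RNA was parted from the DNA of the same cell by G&T-seq, amplified as cDNA and made into Nextera XT libraries. The series lists 96 wells: 76 with serum/LIF cells, 16 with cells in 2i medium and 4 with no cell. Counts were analysed for 61 serum/LIF cells, 33 from plate rows A to D and 28 from rows E to H. Neither the 2i cells nor the empty wells were analysed here, so growth conditions were not compared and the counts of a well without a cell are not known.

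Each library is 1 cell, and no separate cultures are named in the labels, so the condition is 1 sample. The spread given below is therefore a spread between cells of that sample, and no test was made. A cell held between 2417702 and 6787261 counts in all (median 4244480). Between 5317 and 10032 genes were detected per cell, a gene being called detected from 1 count. The mitochondrial share of counts ran from 0.0543 to 4.45%. Levels are in CPM (counts scaled to a common total of 1000000) over TMM-scaled totals, and 3 counts correspond to 0.442 CPM in the deepest library and to 1.24 CPM in the shallowest. Reads carry no molecular identifiers. The intervals given for a share of cells are binomial over cells and cover the sampling of cells only.

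Imprinted genes are expressed mainly or only from the copy inherited from 1 parent, which is set by DNA methylation placed in the germline at imprinting control regions and kept through the divisions of the embryo. Several act on growth, where genes expressed from the paternal copy tend to promote it and genes expressed from the maternal copy tend to restrain it. In mouse, Igf2, Peg3, Peg10, Sgce, Snrpn and Impact are known as paternally expressed, and H19, Igf2r, Grb10 and, in certain tissues, Gnas as maternally expressed. Imprints can be lost in cultured embryonic stem cells. The counts sum both parental copies, so none of the values below tells which copy was read.

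The promoters differ in how many CpG sites, the sites of DNA methylation, they hold. The stretches shown lie before a start site in the RefSeq promoter table for GRCm38.p6, outside every exon of GENCODE M21 (for Peg3 this leaves out the few bases next to the RefSeq start), and were picked for genes at opposite ends of the detection range and for the gap that Peg3 shares with a silent neighbour. That table had entries for 6 of the 10 genes. All 4 stretches are read 5′ to 3′ on the minus strand, in lower case with each CpG in capitals.
Peg3, chr7:6730432-6730577: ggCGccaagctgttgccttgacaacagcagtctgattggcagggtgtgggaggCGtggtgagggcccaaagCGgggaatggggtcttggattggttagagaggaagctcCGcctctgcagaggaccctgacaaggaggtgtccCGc
Igf2r, chr17:12769707-12769956: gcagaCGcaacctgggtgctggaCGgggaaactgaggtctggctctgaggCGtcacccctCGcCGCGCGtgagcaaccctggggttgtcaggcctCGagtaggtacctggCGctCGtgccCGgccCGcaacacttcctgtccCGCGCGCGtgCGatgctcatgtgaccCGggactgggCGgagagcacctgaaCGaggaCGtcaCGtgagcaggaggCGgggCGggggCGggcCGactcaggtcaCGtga
Grb10, chr11:12037421-12037670: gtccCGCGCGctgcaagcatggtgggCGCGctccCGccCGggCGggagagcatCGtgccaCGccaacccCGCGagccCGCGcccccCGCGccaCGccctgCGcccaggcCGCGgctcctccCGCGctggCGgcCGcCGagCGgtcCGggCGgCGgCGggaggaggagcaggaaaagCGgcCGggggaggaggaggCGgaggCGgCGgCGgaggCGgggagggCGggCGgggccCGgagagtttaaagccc
Igf2, chr7:142657497-142657746: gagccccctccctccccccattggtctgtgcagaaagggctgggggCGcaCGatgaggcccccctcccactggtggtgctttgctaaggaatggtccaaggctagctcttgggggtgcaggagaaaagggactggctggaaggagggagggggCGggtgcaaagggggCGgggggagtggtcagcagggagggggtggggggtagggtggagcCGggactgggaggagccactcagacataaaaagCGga
The Peg3 stretch is the whole gap of 146 bases between the starts of Peg3 and Usp29 and holds 5 CpG. The 250 bases of Igf2r lie outside that gene and inside the antisense transcript Airn, which is known to silence Igf2r on the paternal copy, and hold 27 CpG. The 250 bases of Grb10 lie in an intron of the longest annotated transcript and hold 40 CpG. The 250 bases of Igf2 precede the most downstream of 4 RefSeq starts, are intronic to the longer transcripts and hold 6 CpG. Counted over the table's full 300-base window, CpG numbered 45 and 9 for the 2 Grb10 starts, 34 for Igf2r, 13 for Peg3 and 2, 14, 24 and 7 for the Igf2 starts. Over all 32851 windows the median was 7 CpG with an interquartile range of 3 to 20, and 94.6% of windows held at least 1.

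Among the 9 measured genes, 6 were detected in at least 31 of the 61 cells: Impact and Gnas in all 61, Igf2r in 60, Grb10 in 56, Peg3 in 54 and Peg10 in 52. Over all gene rows, 21.67% were detected that often. Sgce was detected in 17 cells, Igf2 in 3 and H19 in 1. The cells thus carried RNA of 3 paternally and 3 maternally expressed members of the group widely, and the neighbouring pair of H19 and Igf2 hardly at all.

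**Figure D1:**
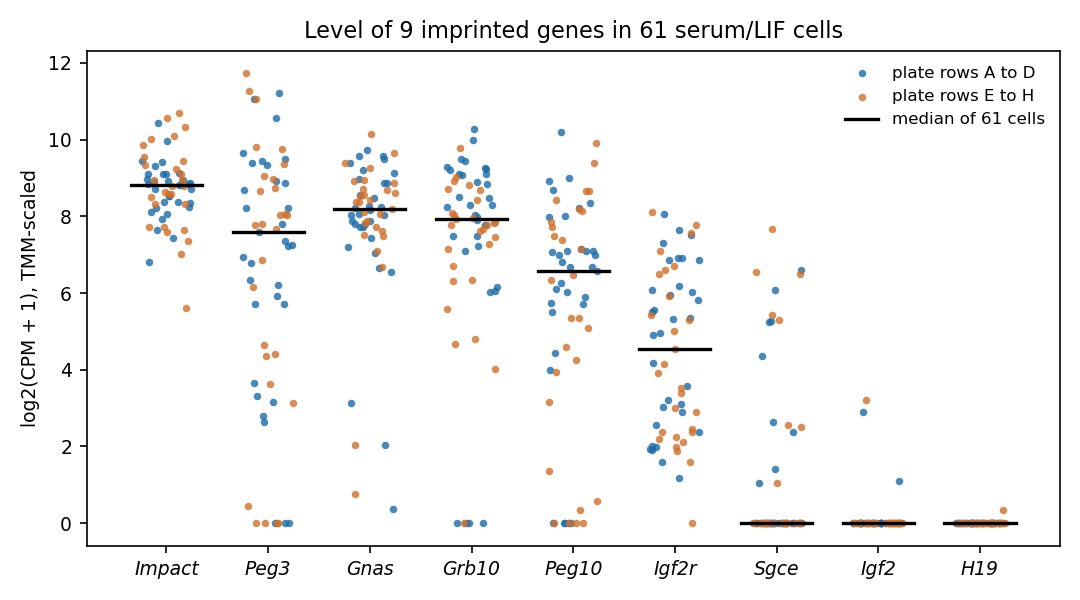
Level of each of the 9 measured imprinted genes, as log2(CPM + 1), with 1 point per cell coloured by plate rows and a black line at the median of 61 cells. Impact has no cell at 0, Peg3 spreads from 0 to 3394 CPM and Peg10 from 0 to 1165 CPM, and Igf2 and H19 lie at 0 in 58 and 60 cells; levels of different genes are not scaled to length here.

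H19 and Igf2 lie side by side on distal chromosome 7 and share enhancers and 1 imprinting control region. Igf2 encodes a fetal growth factor, and H19 a non-coding RNA. H19 (chr7:142575529-142578143, minus strand) had a single count in a single cell, well F09, which is 1.64% of cells with an exact 95% binomial interval of 0.0415 to 8.80%. Igf2 (chr7:142650766-142666816, minus strand) had 28 counts in E07, 28 in B03 and 5 in C10, and none in the other 58 cells. This is 4.92% of cells, with an exact 95% interval of 1.03 to 13.7%. Its highest level was 8.25 CPM, in E07. Neither gene passed the filter of 10 counts in 10 cells. Other transcripts of the same domain were also rare: Ins2, the insulin gene next to Igf2, was detected in 1 cell, and the antisense Igf2os in 2 cells.

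Igf2r, the receptor that takes IGF2 into lysosomes for breakdown, was detected in 60 of 61 cells, at a low level in many of them. Its level (chr17:12682406-12769664, minus strand) had a lowest value of 0, a median of 22.2 CPM and a highest value of 274 CPM, with a mean ± SD of 54 ± 69 CPM (n = 61 cells). The gene was at 0 in 1 cell, above 0 and under 10 CPM in 24, from 10 to 100 CPM in 23 and above that in 13. The median was 39.1 CPM in plate rows A to D and 12.3 CPM in rows E to H, and the highest cells of the 2 sets were alike, D06 at 267 and H01 at 274 CPM.

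Grb10, an adaptor protein that binds the insulin and IGF1 receptors and restrains growth, was at 0 in 5 cells, between 0 and 10 CPM in none, from 10 to 100 CPM in 9 and above that in 47. It had a median of 243 CPM, a highest value of 1239 CPM in D06 and a mean of 308 ± 261 CPM (SD, n = 61 cells). Its gene spans chr11:11930508-12038683 on the minus strand. The 5 cells at 0 were B05, B10, C02, C07 and H03. Its level had a relation to the number of genes detected per cell, with Spearman's rho of 0.43 and Pearson's r of 0.39 over 61 cells. With the 2 cells farthest from the median of that number left out, r was 0.31. For Peg10 the same rho was 0.34 and r was 0.42 (r = 0.30 with those 2 cells left out).

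Gnas encodes the stimulatory G protein alpha subunit, which couples hormone receptors to cyclic AMP, and its locus also yields imprinted transcripts from alternative starts. It was detected in every cell, with a lowest value of 0.299 CPM, a median of 292 CPM, a highest value of 1135 CPM and a mean of 343 ± 233 CPM (SD, n = 61 cells). Of the 61 cells, 54 lay at 100 CPM or more and 5 under 10 CPM, with only 2 between. The gene spans chr2:174284320-174346744 on the plus strand. It overlaps an annotated antisense gene, Gm20721, which held 89693 counts over all cells against 90179 for Gnas, and both followed each other across cells with a rho of 0.99. In the 56 cells with at least 100 counts in the sum, the share of Gnas ran from 49.1 to 64.4%, with a median of 49.9%. How reads in the shared stretch were assigned, and whether strand was used, is not given in the sources used here, and the rows cannot be told apart as separate transcripts. With both rows summed, the median was 568 CPM and the lowest cell still lay at 0.598 CPM. The sum holds a read more than once if that read was counted in both rows, which was not tested.

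The 5 cells with little Gnas RNA, described after their values were seen, were D05 with 1 count, F07 with 2, B05 with 10, H10 with 13 and C05 with 31. Their totals ran from 2892439 to 4045323 counts, inside the range of the other cells but all below the median of 4244480. Between 6430 and 8404 genes were detected in them, where the median over all cells was 8404. Zfp42, a marker of the naive pluripotent state, was at 1759, 479, 1695, 1106 and 1096 CPM in these 5 cells, where its median over all 61 cells was 2.77 CPM and 11 cells reached 400 CPM. F07 and B05 also had the 2 highest mitochondrial shares, 4.45 and 4.43%. Over 61 cells the level of Gnas had a relation to the mitochondrial share with a rho of -0.34 and an r of -0.51, and r was -0.26 with the 2 cells of most extreme share left out. In F07 and B05, Impact was near the top of its range, at 1521 and 1379 CPM. The part of the mitochondrial share in the Gnas level was not tested.

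Peg3, a zinc finger protein studied for its roles in growth and maternal behaviour, spanned the widest range of CPM in the group. Its lowest value was 0, its median 191 CPM and its highest 3394 CPM, in well G03, with a mean of 441 ± 698 CPM (SD, n = 61 cells). The next highest cells, G09 and A04, held 2450 and 2362 CPM, and these 3 cells made up 30.5% of the summed level. At the other end, 7 cells were at 0 and 6 lay between 0 and 10 CPM. Of the 348 genes with a mean CPM at least as high, Peg3 included and without regard to length, 318 were detected in all 61 cells and 5 in as few cells as Peg3 or fewer. The gene spans chr7:6703892-6730431 on the minus strand. Usp29, which starts 147 bases away on the other strand beyond the printed gap and is imprinted together with Peg3, had 0 counts in all 61 cells, which allows a share of cells with a count of up to 4.92%, taken as 3 of 61 cells and not by the exact interval used above. Zim1, the next gene of the domain, was detected in 2 cells with 199 counts in all.

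Peg10 is a gene derived from a retrotransposon and needed for the placenta, and Sgce encodes epsilon-sarcoglycan of a membrane complex. They start 99 bases apart on opposite strands of chromosome 6 around 1 imprinting control region, Peg10 at chr6:4747306-4760517 and Sgce at chr6:4674350-4747207. Peg10 had a lowest value of 0, a median of 93.8 CPM, a highest value of 1165 CPM in A02 and a mean of 166 ± 225 CPM (SD, n = 61 cells). Its median was 101 CPM in plate rows A to D and 59.6 CPM in rows E to H. Sgce had a median of 0 and a highest value of 202 CPM in H01, and its 3 highest cells made up 52.5% of its summed level. Both were detected in 16 cells, Peg10 alone in 36, Sgce alone in 1 and neither in 8. Their levels were weakly related across cells, with a rho of 0.12. Among 516 pairs of genes that start within 1000 bases of each other on opposite strands, the median rho was 0.0452 and 68.4% of pairs lay below that of Peg10 and Sgce.

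Impact encodes a regulator of the stress kinase GCN2. It was well above 0 in every cell, with a lowest value of 47.6 CPM in H03, a median of 448 CPM, a highest value of 1643 CPM in F09 and a mean of 511 ± 335 CPM (SD, n = 61 cells). It lay between 100 and 1000 CPM in 54 cells and at 1000 CPM or more in 6. Its median was 450 CPM in rows A to D and 439 CPM in rows E to H.

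Snrpn, a splicing protein gene next to the imprinting centre of the Prader-Willi and Angelman domain, had no row under its GENCODE M21 identifier. A row at the same place, named Gm38393 in the annotation (chr7:59974149-60005064, minus strand), shares exons with Snrpn. It was detected in 59 cells, with a lowest value of 0, a median of 345 CPM and a highest value of 1297 CPM. It is reported as a row of the locus and counted in none of the group's totals.

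Levels of different genes were compared as medians of CPM per kilobase of exon. Impact stood first at 87.3 CPM per kilobase, followed by Grb10 at 26.8, Gnas at 26.1, Peg3 at 14.3, Peg10 at 14.1 and Igf2r at 2.39, while Sgce, Igf2 and H19 had medians of 0. Impact exceeded Grb10 in 55 of 61 cells, and their interquartile ranges did not overlap. Each later neighbour in the order overlapped the next in its interquartile range. Grb10 exceeded Gnas in 36 cells and Peg3 exceeded Peg10 in 31, so these neighbours were not set apart. With the length of the longest transcript in place of all exons, Gnas moved ahead of Grb10, at 74 against 48 CPM per kilobase, and the ranges of Impact and Gnas then overlapped.

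Variation between cells was measured as the squared coefficient of variation (CV2) divided by the trend of CV2 on mean count over the 10868 genes that reached 10 counts in 10 or more cells. A ratio above 2 was taken as high, which held for 26.05% of these genes. Of the 9 measured genes, 7 passed this filter and 4 had a ratio above 2, with a median ratio of 2.24 over the 7 beside 1.41 over all genes that passed. Peg3 had a ratio of 8.89, and only 28 of the 10868 genes had a higher one. Peg10 followed at 4.29, above 97.6% of genes. Sgce at 2.27 and Grb10 at 2.24 lay just above the bound, and their ratios were 1.47 and 1.94 without the cell of the highest value. Peg3 and Peg10 without their highest cells were at 7.74 and 3.37. Igf2r at 1.80, Impact at 1.59 and Gnas at 1.5 lay below the bound, although Igf2r passed it under other filters on low counts (2.28 and 2.04).

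**Figure D2:**
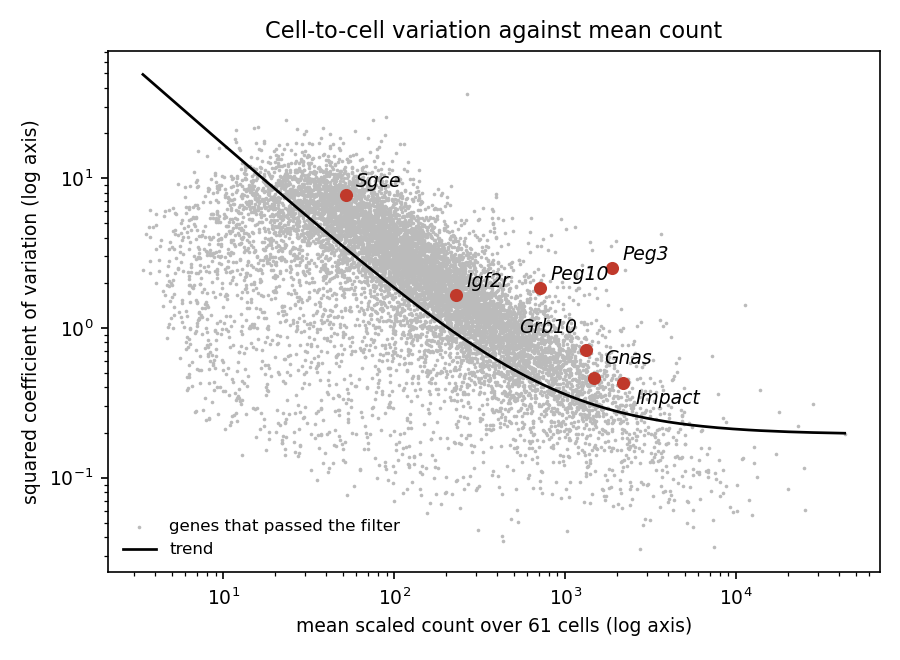
Squared coefficient of variation against mean scaled count over 61 cells, both on log axes, for the 10868 genes that passed the filter (grey) with the fitted trend (black) and the 7 imprinted genes that passed (red). Peg3 and Peg10 lie far above the trend for their mean, with ratios of 8.89 and 4.29, and Gnas and Impact lie near it.

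Relations between the genes were described by Spearman's rho across cells, on residuals of log2(CPM + 1) from a regression on the fraction of genes seen in the cell. The points share depth, capture and any common state of the cells, and no p-value was computed. Of the 21 pairs among the 7 genes, 16 had a rho above 0, with a median of 0.12 and a range from -0.23 for Igf2r and Gnas to 0.39 for Gnas and Grb10. The relation of Gnas and Grb10 had an r of 0.30 and was weaker in plate rows E to H, where rho was 0.14. Peg3 and Peg10 had a rho of 0.32, with 0.30 in rows A to D and 0.34 in rows E to H. They lie on different chromosomes. As a background, the rho of Peg3 with all other genes ran from -0.26 at the 5th percentile to 0.28 at the 95th, and that of Grb10 from -0.24 to 0.26. For the 7 genes, the median rho with all other genes that passed the filter lay between -0.00328 for Impact and 0.0443 for Sgce. The share of pairs above 0 over all genes is not given, so the count of 16 has no background.

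**Figure D3:**
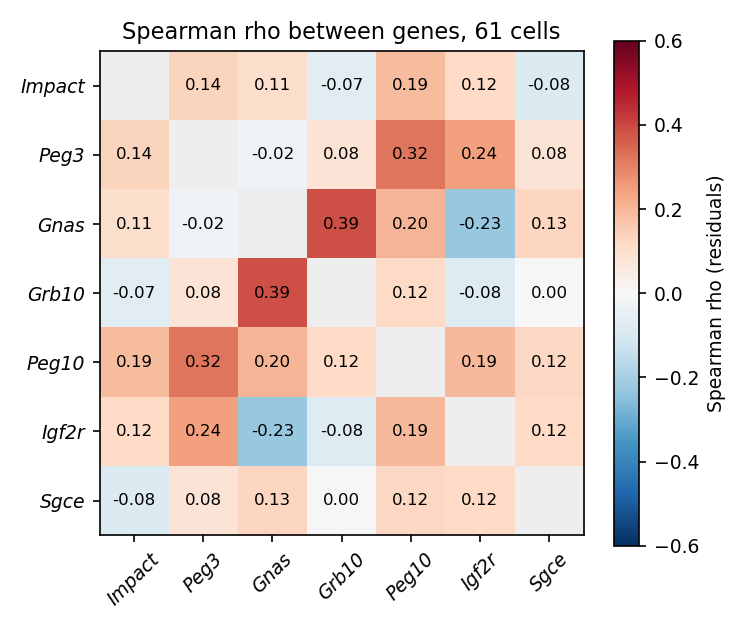
Spearman's rho across 61 cells for each pair of the 7 genes that passed the filter, adjusted for the fraction of genes seen in the cell, with blue for negative and red for positive values. Gnas with Grb10 (0.39) and Peg3 with Peg10 (0.32) are the highest pairs, and the others run from -0.23 for Igf2r with Gnas to 0.24 for Igf2r with Peg3.

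The cells at 0 differed between genes, with some shared. Peg3 was at 0 in A09, B10, D01, E01, F01, G07 and H02, and Peg10 in B09, B10, C02, C07, D05, E03, F06, H02 and H10. B10 and H02 lacked both. C02 and C07 lacked Peg10 and Grb10. B10 lacked Peg3, Peg10 and Grb10 and was the cell with the fewest genes detected, 5317. Its total of 4501739 counts was above the median. Of the cells without Grb10, B05, B10, C02, C07 and H03 had Zfp42 at 1695, 1113, 1202, 1754 and 705 CPM. Of those without Peg10, B09, B10, C02, C07, D05 and H10 had Zfp42 above 1000 CPM, and E03, F06 and H02 at 32.4, 0 and 0 CPM. Of those without Peg3, B10 and E01 had Zfp42 at 1113 and 1671 CPM. The others without Peg3, A09, D01, F01, G07 and H02, had it at 0, 20.4, 67.5, 0.45 and 0 CPM. These values, too, were looked up after the cells were known.

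The 3 genes most alike to each of the 6 widely detected genes were found by rho over all 61 cells. Peg10 was closest to Rdh10 (0.62), Cald1 (0.61) and Tagln (0.58), the last pair actin-binding proteins. Peg3 was closest to Rgs12 (0.58), Plp2 (0.57) and Prickle3 (0.54). Rgs12 kept a rho of 0.58 and 0.61 within plate rows A to D and E to H, whereas Plp2 had 0.22 and 0.84 and Prickle3 0.14 and 0.80. Gnas was closest to Fndc3c1 (0.60), the G protein gamma subunit gene Gng2 (0.55) and Soat1 (0.55). Grb10 was closest to Zyx (0.57), a focal adhesion protein, Setd7 (0.55) and Rcn2 (0.51). Igf2r was closest to Tsg101 (0.54), a sorting protein of the endosome, Gm5847 (0.49) and Ppfia1 (0.45). Impact was closest to Mapk1ip1l (0.48), Rnf214 (0.45) and Dync1li2 (0.45). These are the highest values out of 10867 genes for each of the 6, with rows that overlap the gene left out, such as Gm20721 for Gnas.

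The label of embryonic stem cells was checked against marker lists. All 8 general pluripotency markers were detected in at least 31 cells, among them Pou5f1, Sall4 and Lin28a in all 61, and their summed level ran from 571 to 13499 CPM, of which Dppa5a alone held up to 10938 CPM. Of the 6 neurectoderm markers Sox1, Neurog2 and Hes5 were at 0 in all cells, whereas Nes was detected in 47 cells, Pax6 in 16 and Zic1 in 1. Of the 8 trophectoderm markers Elf5 and Tpbpa were at 0 in all cells. Eomes was detected in 25 cells, Tfap2c in 23, Gata3 in 20, Cdx2 in 18, Krt7 in 5 and Hand1 in 1. Of the 11 primitive endoderm markers Dab2 was detected in 20 cells, Gata6 in 3, Gata4 in 2, Sox17 in 1, Ttr in none and each other one in at most 6 cells. Of the 8 fibroblast markers none was detected in more than 8 cells. Mesendoderm markers were present in part of the cells, with T in 40, Mixl1 in 17 and a summed level from 0 to 4727 CPM.

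Peg3, Peg10 and Gnas tended to be lower in cells with more general pluripotency RNA and higher in cells with more mesendoderm RNA. With the summed level of the 8 general pluripotency markers, rho was -0.49 for Peg3, -0.46 for Peg10 and -0.36 for Gnas over 61 cells, and r was -0.45, -0.48 and -0.33. Leaving out the 2 cells with the most extreme marker level gave an r of -0.39, -0.44 and -0.35. Within rows A to D and rows E to H, rho was -0.43 and -0.56 for Peg3 and -0.35 and -0.53 for Peg10. The markers in this sum were not scaled to each other, and Dppa5a held up to 10938 CPM of it. Dppa5a had a ratio of CV2 to trend of 6.83, against 2.26 for Dppa4, the next highest of the list. The part of Dppa5a in these relations was not tested. With the summed mesendoderm level, rho was 0.43 for Gnas, 0.41 for Peg3 and 0.41 for Peg10, and r was 0.45, 0.27 and 0.38. Peg3 also followed the summed trophectoderm list, with a rho of 0.49, an r of 0.49 and an r of 0.46 without the 2 farthest cells, whereas the other 6 genes had a rho from -0.08 to 0.15. That list shares Cdx2 and Eomes with the mesendoderm list. Its other detected members were Tfap2c in 23 cells, Gata3 in 20, Krt7 in 5 and Hand1 in 1, and its summed level ran from 0 to 602 CPM. With the fibroblast list, whose summed level had a median of 0, rho was 0.39 for Gnas, 0.35 for Grb10 and 0.30 for Peg10. With the neurectoderm list, which ran from 0 to 604 CPM, rho was 0.31 for Peg10 and 0.29 for Sgce. The part of these markers in the levels of the imprinted genes was not tested.

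**Figure D4:**
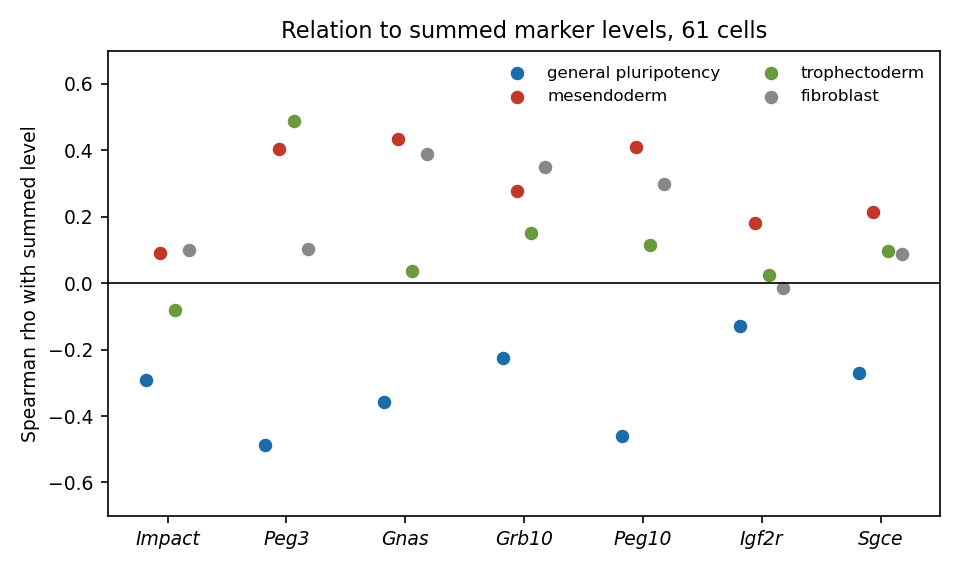
Spearman's rho across 61 cells between each of the 7 imprinted genes and the summed level of 4 marker lists, adjusted for the fraction of genes seen in the cell. For general pluripotency (blue), Peg3 and Peg10 lie lowest at -0.49 and -0.46, and the highest trophectoderm value (green) is that of Peg3 at 0.49. The same relations over all genes are not given.

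A naive pluripotency score, the scaled mean z-score of 13 measured naive markers, ran from -0.98 to 2.73 and had a gap between 0.98 and 1.49, with 52 cells below and 9 above. Relations are therefore given within each set. Among the 52 cells, Peg3 had a rho of -0.32 with the score and an r of -0.25, and without the 2 farthest cells r was -0.23. Gnas had a rho of -0.26 and an r of -0.49, and its r was -0.18 without those 2 cells, so its relation rested on them. The other 5 genes had a rho from -0.23 for Peg10 to 0.02 for Impact. Among the 9 cells above the gap, Gnas had a rho of -0.62 and an r of -0.70, with an r of -0.61 without the 2 farthest. Peg3 there had the opposite sign to that among the 52 cells, with a rho of 0.47 and an r of 0.44, and an r of 0.63 without the 2 farthest. In those 9 cells Impact, Gnas and Igf2r were detected in all 9, Peg3 in 8, Grb10 in 5, Peg10 in 4 and Sgce in none. No comparison between the 2 sets was made.

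Other imprinted genes outside the Dlk1-Dio3 region were counted in a list of 60, of which 55 had a row. Of these 55, 20 were detected in at least 31 cells, 28 in fewer and 7 in none, and over all gene rows 21.67% were detected that often. Of the 29 that passed the filter on low counts, 8 had a ratio of CV2 to trend above 2, where 26.05% of all genes did. The highest medians belonged to Cd81 at 339 CPM, Nap1l4 at 228, Ube3a at 193, Slc38a4 at 182 and Commd1 at 171, not scaled to length. The most variable were Sfmbt2, a polycomb protein gene, with a ratio of 4.35, Mest at 4.07, Ddc at 3.63, the cell cycle inhibitor gene Cdkn1c at 3.38 and Calcr at 3.09. Calcr, which lies near Peg10, was detected in 16 cells.

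Genes that set, keep or erase imprints were widely present. Of 20 such genes, 17 were detected in at least 31 cells and all 20 passed the filter, and 12 had a ratio above 2, with a median ratio of 2.23. Over all genes 21.67% of rows were detected that often and 26.05% of those that passed had a ratio above 2. Hells, a chromatin remodeller, had a median of 521 CPM, Trim28, the corepressor that binds methylated imprinting control regions through zinc finger proteins, 458 CPM, the polycomb gene Eed 446 CPM, the de novo methyltransferase Dnmt3b 377 CPM and Uhrf1, which brings the maintenance methyltransferase to replicated DNA, 268 CPM. Zfp57, the zinc finger protein that recognises imprinting control regions, was detected in 47 cells with a median of 13.8 CPM. The most variable of the list was Dnmt3l, a cofactor of de novo methylation, with a ratio of 12.7 and detection in 28 cells. Dppa3, which protects methylation in the early embryo, had a ratio of 6.99, the dioxygenase Tet1 5.15, Arid4b 3.57 and Dnmt3b 3.56.

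The partners of Igf2, Igf2r and Grb10 in IGF signalling were present in part. Of 20 genes of this pathway, 9 were detected in at least 31 cells, 15 passed the filter and 4 had a ratio above 2. The last count is close to the share of 26.05% over all genes that passed, and 21.67% of all rows were detected in as many cells. The RNA-binding protein gene Igf2bp1 had a median of 1102 CPM and was detected in every cell, and the medians of Igfbp2, Igfbp3 and Igf2bp3 were 412, 197 and 194 CPM. Igfbp3 had a ratio of 6.12, Igfbp2 4.0, the receptor gene Igf1r 2.91 and Irs1 2.55. The ligand Igf1 and the binding protein Igfbp5 were detected in no cell.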

How the data were processed

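Single-cell RNA libraries of serum/LIF cells were analysed from the deposited counts, which are whole reads per gene that the authors left unnormalized. The submitters' processing notes list bedtools 2.19.1, SAMtools 0.1.18, GSNAP and DESeq2, with the build GRCm38. The sources used here give neither the counting rule nor the annotation release nor the strand setting. The deposited normalized table was not used, because only 1.64% of its values in the first 2000 rows carried the median factor of their own cell (relative tolerance 0.0001).

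The 95 ERCC spike-in rows were left out; no cell held more than 4 such counts. Symbols were found for 34880 of 36205 identifiers, and coordinates are from GENCODE M21 (GRCm38). Totals were scaled by TMM in edgeR 4.0.16 (R 4.3.3). CV2 trends came from modelGeneCV2 of scran 1.30.0, whose p-values were not used. Alternatives were plain totals, DESeq2 1.42.0 size factors, other low-count filters, pseudocounts of 0.1 and 10 in place of 1, counts thinned to 2417702 per cell, both plate parts and omitted cells. The code for the variation ratio and the correlations was run on simulated counts with genes made more variable and pairs made to vary together. That run bears on the code alone and on no value given here. Doublets were not called, since each well was labelled as 1 cell. Sequences are from RefSeq (GRCm38.p6).

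The members and lists were chosen with earlier results of these data known. Named genes were all members, the 3 most alike genes of each member detected in at least 31 cells, and from each list the 5 highest medians and up to 5 most variable genes with a ratio above 2. Zfp57, Calcr and the genes at particular loci were named in addition. A gene that this rule names is not reported here.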

Additional observations from a re-analysis of the deposited data

How the results depend on the processing

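Of the alternatives run on the main results, 28 stayed within the bounds used (within 1.5 times for a count, or within 1 over the square root of the number of cells less 1 for a rho) and none changed direction. The number of imprinted genes with a variation ratio above 2 was 4 and became 2 without the highest cell of each gene, which left Peg3 and Peg10. The rho of Gnas and Grb10 was 0.39 over all cells and 0.14 in plate rows E to H; the cause was not tested. For single genes, 142 alternatives stayed within bounds and 11 did not, where the bound was 1 SD over cells for a median, the exact 95% interval for a share of cells and the same side of 2 for a ratio. These are wide: the median of Igf2r was 39.1 CPM in rows A to D and 12.3 CPM in rows E to H, against 22.2 CPM over all cells. Sgce had a ratio of 1.95 in thinned counts and of 3.55 with a filter of 1 count in 2 cells, Grb10 had 1.90 with that filter, and the row Gm38393 had 2.12 without the cell with the fewest genes and the cell with the highest mitochondrial share, against 1.98 with all cells. The summed rows at Gnas, the stricter detection of the other lists and the omission of cells for the cell measures were chosen after seeing the data. No paired analysis was possible because the result comes from no test and all cells belong to 1 group. H19 and Igf2 rest on 1 and 61 counts over all cells, which limits the precision of their levels.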
